A study of Mus musculus with 32 samples.

Results

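The comparison asked whether prospermatogonia of an unexposed generation differed in RNA content when their fathers had been exposed as fetuses to di-(2-ethylhexyl) phthalate (DEHP), a plasticizer that lowers androgen production in the fetal testis. It comprised 6 of the 32 arrays of the series, 3 labelled G2R DEHP male and 3 labelled G2R Oil male, chosen by their labels alone. Pregnant G0 mice had received 750 mg/kg/day DEHP or corn oil by gavage from 12.5 dpc, while the germ cells of their G1 male fetuses acquired DNA methylation. Grown G1 males of the FVB strain were mated with unexposed OG2 females, and prospermatogonia of their G2 fetuses were collected at 17.5 dpc by FACS on EGFP. The labels give the genotype of both groups as OG2xFVB and name the mother as the G1 parent, whereas the breeding scheme of the study has a G1 father. In OG2 mice an Oct4 promoter transgene drives EGFP, so every sample holds the cells that passed that gate, and the maternal OG2 genome was shared by both groups. The oil line served as the control of the same breeding. The labels do not say how many fetuses or litters entered an array, so the spread between arrays may be technical. The p-values and standard errors rest on a spread per probe pooled over all 11 groups, not on these 6 arrays alone.

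Prospermatogonia are the fetal precursors of the spermatogonial stem cells. Late in gestation they rest in the cell cycle and receive their de novo DNA methylation from Dnmt3a with its partner Dnmt3l, while piRNA pathway proteins guide methylation to transposons. A difference transmitted through sperm would have to outlast the erasure of methylation in the G2 primordial germ cells to be seen at this stage. The suffix R in G1R and G2R marks germ cells that have been through this reprogramming in the G1 or G2 fetus.

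RNA was measured on Mouse Gene 1.0 ST arrays, and values below are log2 signals after robust multichip averaging (RMA) unless a difference is named. Array medians ran from 7.40 to 7.48 in the 6 arrays. Pairs of arrays correlated with r of 0.9887 to 0.9915 within oil, 0.9865 to 0.9884 within DEHP and 0.984 to 0.9921 between oil and DEHP, so the ranges within and between groups overlapped. The first principal component of the 9 G2R arrays carried 23.5% of the variance. On it the second DEHP array lay at -18.6, the first and the third at 24.7 and 19.4, and the oil arrays at -29.4, 4.92 and -8.93. On the second component (18.9%) the third DEHP array stood apart, at -19.2 against 9.27 and 2.59. On the third (12.9%) the first did, at 20.7 against -10.9 and 5.54. Array quality weights of the 3 DEHP arrays were 1.17, 0.547 and 0.616. Olfactory receptor genes, taken here as the measure of background, had a median signal of 5.21, and 90% of them lay under 6.49. Signals under 6.7 are therefore called dim.

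The germ cell label held in the data. Dazl and Ddx4, which encode RNA-binding proteins of germ cells, had signals of 12.40 to 12.53 and of 11.55 to 11.83 over the 6 arrays. Dnmt3l lay between 11.45 and 11.80 and Piwil4, a piRNA pathway effector, between 11.38 and 11.78. Pou5f1, which encodes Oct4 and whose promoter drives the sorting marker, had 10.51, 10.40 and 10.38 in oil and 10.23, 10.36 and 10.03 in DEHP, a difference of -0.22 ± 0.29 (SE; limma adjusted p = 0.921). The one early marker near background was Nanos2, a translational regulator of male germ cells, with 6.10 to 6.28 in oil and 6.06 to 6.49 in DEHP. In all, 6 of 6 defining germ cell genes were measured and none passed the test.

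Signal of somatic testis cells was also present and varied from array to array. Cyp17a1, which encodes a steroidogenic enzyme of Leydig cells, had 7.58, 9.37 and 10.82 in oil and 9.28, 11.90 and 9.51 in DEHP. The groups overlapped, and the second DEHP array was the highest of the 6 for Cyp17a1, Cyp11a1, Star and Hsd3b1 alike. Cyp11a1 reached 9.26 there against 7.04 to 8.14 in oil, and Star reached 8.33 against 6.51 to 7.32. Inha, which encodes the inhibin alpha subunit made by Sertoli cells, had 7.85, 8.36 and 8.69 in oil and 8.26, 9.31 and 9.13 in DEHP, with a difference of 0.60 ± 0.46 (limma adjusted p = 0.836). Amh, the Sertoli cell hormone that regresses the Müllerian duct, had 6.57 to 7.25 in oil and 7.43 to 7.75 in DEHP, and its arrays did not overlap, as was so for 1947 of 19938 genes (9.77%). The Amh difference of 0.68 ± 0.48 did not pass (limma adjusted p = 0.821). Sox9, the transcription factor that directs Sertoli cell fate, went the other way, with 8.30, 8.51 and 9.06 in oil and 8.18, 8.38 and 8.48 in DEHP, a difference of -0.27 ± 0.20, and Tsx had -0.26 ± 0.14 (limma adjusted p = 0.828 and 0.746). Of the 23 Sertoli cell genes measured, 16 had a positive and 7 a negative difference. Fewer cells of a type and less RNA per cell cannot be told apart in such bulk samples. Over the whole lists, 1 of 23 Sertoli cell genes had an unadjusted p under 0.05, Cst9, with higher signal, and 0 of 12 fetal Leydig cell genes did, where 6.39% of all genes had one. The mean signal of the Sertoli list was 7.11 to 7.50 in oil and 7.30 to 7.57 in DEHP, and that of the Leydig list 7.83 to 8.38 and 8.02 to 8.82. The part of these cells in the differences below was not tested.

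**Figure D1:**
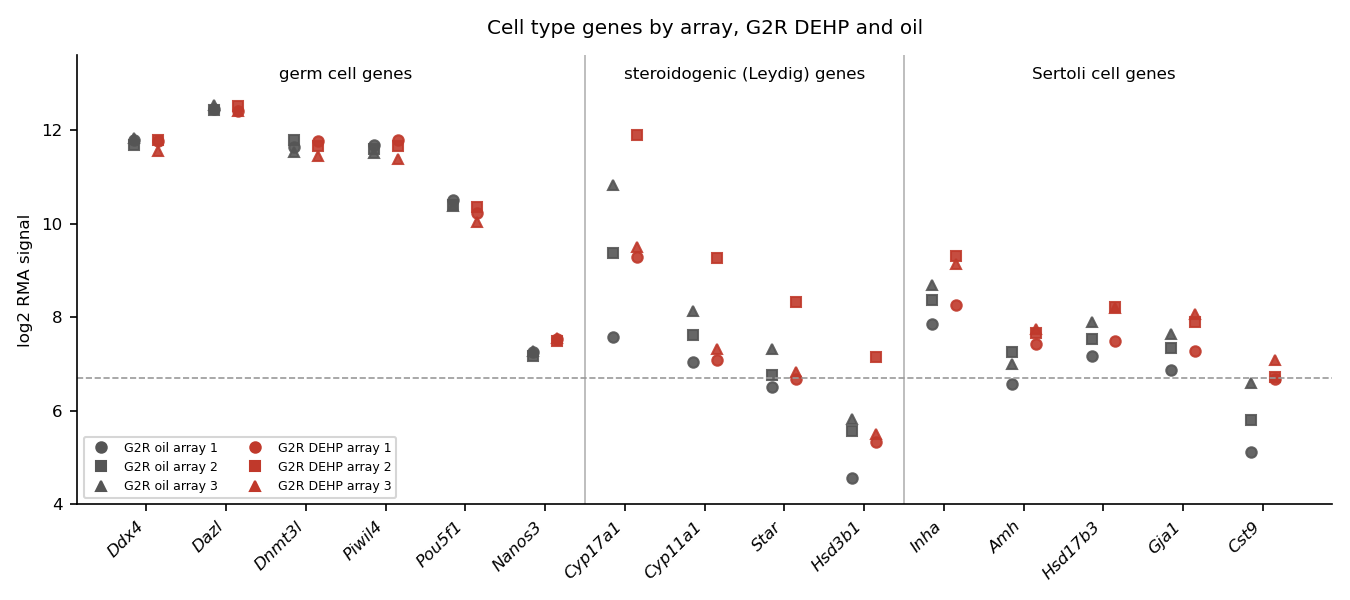
Log2 RMA signal of 6 germ cell, 4 steroidogenic and 5 Sertoli cell genes in each of the 3 G2R oil (grey) and 3 G2R DEHP (red) arrays, with marker shapes for the array number and a dashed line at 6.7, under which signals are called dim. Germ cell genes lay close together in all arrays, while Cyp17a1 ran from 7.58 to 11.90 and the second DEHP array was the highest for all 4 steroidogenic genes. The 5 Sertoli cell genes shown all had a positive difference. Sox9 and Tsx, which had a negative one, and the dim germ cell gene Nanos2 are not shown.

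No probe distinguished the DEHP line from the oil line after adjustment. The limma model, fitted to all 32 arrays so that every group adds to the estimate of the spread, called 0 of 35556 probes (0.0%) at an adjusted p under 0.05, and the smallest adjusted p was 0.369. At an unadjusted p under 0.05 there were 2456 probes (6.91%), 1302 (3.66%) with higher and 1154 (3.25%) with lower signal in DEHP. Of these, 232 (0.652% of all probes) also differed by at least 1.5-fold, but 222 of them have no gene in the annotation of the platform. The 95% interval of a difference had a median half-width of 0.25, and for 95.8% of 19938 genes, each read by its brightest probe, the whole interval lay within 1.5-fold in either direction. Without the second DEHP array, 19 probes passed the adjusted threshold and 4654 the unadjusted one, and without the first oil array 0 and 1347 did.

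Among the genes, 665 (3.34%) had an unadjusted p under 0.05 with higher and 610 (3.06%) with lower signal in DEHP. The DEHP and oil arrays did not overlap for 1057 genes on the higher side (5.3%) and 890 on the lower side (4.46%). The leading genes below are the 15 on each side with the smallest p among those whose arrays did not overlap and whose mean signal reached 6.7 in at least 1 group. Their adjusted p ran from 0.369 to 0.605, so each is a description of these 6 arrays.

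**Figure D2:**
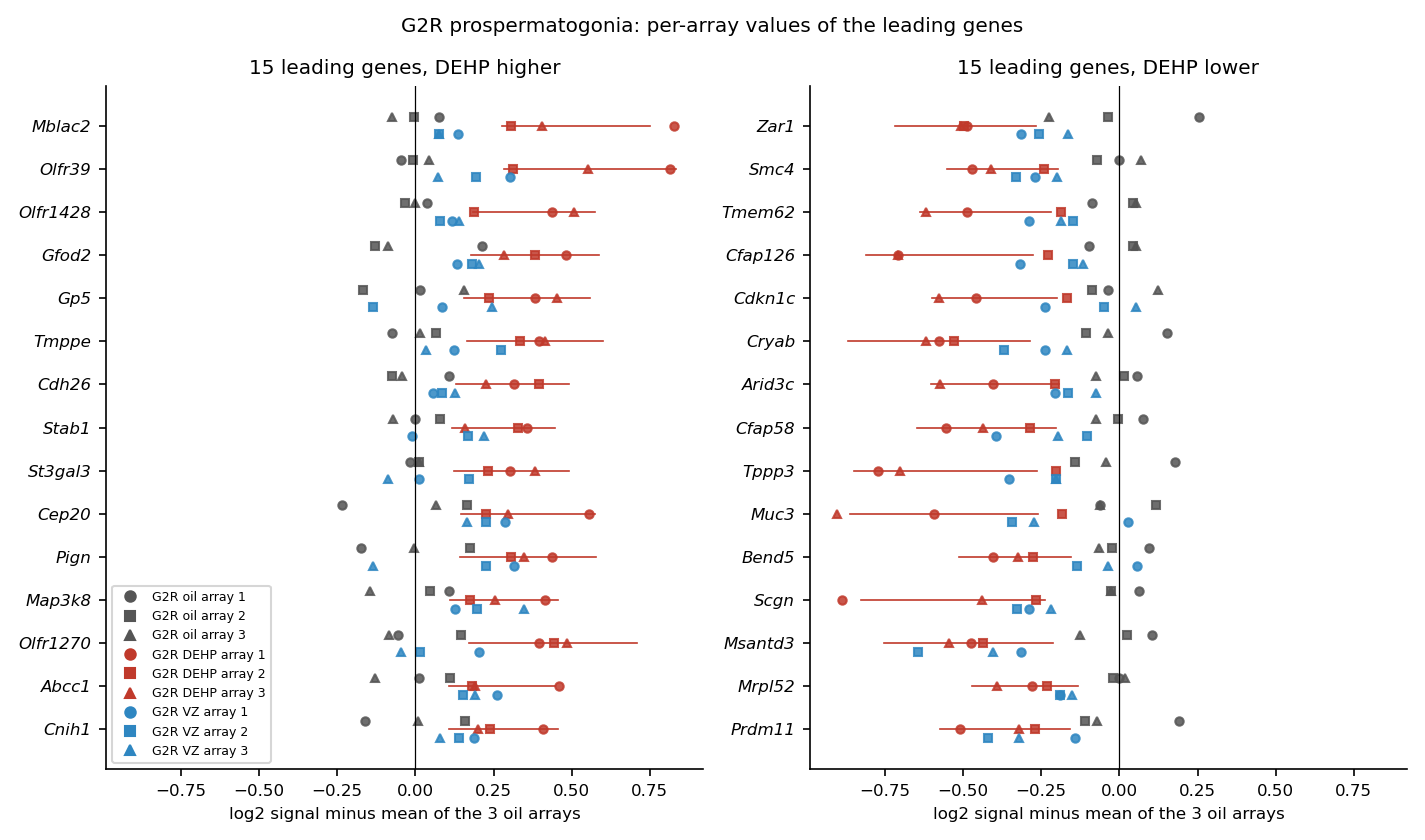
Per-array log2 signal, minus the mean of the 3 oil arrays, of the 15 leading genes with higher signal (left) and the 15 with lower signal (right) in G2R DEHP, with oil in grey, DEHP in red and the vinclozolin (VZ) line in blue. Red lines are 95% intervals of the DEHP minus oil difference from limma. For the leading lower genes the second DEHP array (red square) often lay nearest to oil, as for Cfap126 and Tppp3.

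Zar1 and Smc4 had the smallest p among the genes with lower signal in DEHP. Zar1, a maternal-effect gene of the oocyte that is needed after fertilization, had 8.35, 8.06 and 7.87 in oil and 7.61, 7.60 and 7.59 in DEHP. All 3 DEHP arrays lay below the oil arrays, and the difference was -0.49 ± 0.11 (SE, n = 3 against 3; limma adjusted p = 0.369). A second Zar1 probe of lower signal had -0.10 (limma unadjusted p = 0.338). Smc4, a core subunit of the condensin complexes that compact mitotic chromosomes, had 10.56, 10.49 and 10.63 in oil and 10.09, 10.32 and 10.15 in DEHP, and its interval ran from -0.55 to -0.20. Cdkn1c, an imprinted gene expressed from the maternal allele that encodes the cyclin-dependent kinase inhibitor p57, had 9.19, 9.14 and 9.35 in oil and 8.77, 9.06 and 8.65 in DEHP. Its second DEHP array lay nearest to oil, and the difference was -0.40 ± 0.10 (limma adjusted p = 0.424).

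Cfap126, a cilium and flagellum protein, had 8.48, 8.62 and 8.63 in oil and 7.87, 8.35 and 7.87 in DEHP. Tppp3, which belongs to a family of tubulin polymerization-promoting proteins, had 8.81, 8.49 and 8.59 in oil and 7.86, 8.43 and 7.93 in DEHP. In Cfap126 and Tppp3 the second DEHP array lay close to oil and the other DEHP arrays far below, with mean differences of -0.55 and -0.56. Cfap58, another flagellar protein, had a difference of -0.42. The widest difference among these 15 was that of Cryab, the small heat shock protein alpha B-crystallin, with 8.48, 8.22 and 8.29 in oil and 7.75, 7.80 and 7.71 in DEHP, or -0.58 ± 0.14 (limma adjusted p = 0.444). The others were Tmem62, Arid3c, the mucin gene Muc3, Bend5, the calcium-binding protein gene Scgn, Msantd3, the mitochondrial ribosomal protein gene Mrpl52 and Prdm11, between -0.30 and -0.56. None of the 15 was called with all arrays. On leaving out the second DEHP array 5 of them were, at an adjusted p of 0.046 each in limma: Cdkn1c, Cfap126, Tmem62, Muc3 and Tppp3, at -0.52 to -0.75. The 15 had been chosen on these same arrays, so this is not a separate result. The cell cycle protein gene Nusap1, Mpzl2, Spag11b and the centrin gene Cetn4 completed the 9 probes with a gene among those 19, of which 8 were higher and 11 lower. Spag11b was the only higher one with a gene, at 0.65 without that array. The remaining 10 had no gene, and 6 of these 10 gave identical values to 3 decimals.

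On the higher side, Mblac2, which encodes a protein with a metallo-beta-lactamase fold, had 6.73, 6.65 and 6.58 in oil and 7.48, 6.96 and 7.06 in DEHP, a difference of 0.51 ± 0.12 (limma adjusted p = 0.369). The oil values lay at the boundary of dim signals, and the first DEHP array was the highest. St3gal3, a sialyltransferase, had 8.98, 9.01 and 9.01 in oil and 9.30, 9.23 and 9.38 in DEHP. Both groups were tight, and the difference was 0.31 ± 0.09. Pign, an enzyme of GPI anchor synthesis, had 8.63, 8.98 and 8.80 in oil and 9.24, 9.11 and 9.15 in DEHP, a difference of 0.36. Abcc1, which exports glutathione and drug conjugates from cells, had 9.23, 9.33 and 9.09 in oil and 9.68, 9.40 and 9.41 in DEHP, a difference of 0.28. The groups did not overlap, but the nearest arrays were close. Cnih1, a cargo receptor of the secretory pathway, and Cep20, a centrosomal protein, had 0.28 and 0.36. The others were Gfod2, the platelet glycoprotein gene Gp5, Tmppe, the cadherin gene Cdh26, the scavenger receptor gene Stab1, the kinase gene Map3k8 and 3 olfactory receptor genes, Olfr39, Olfr1428 and Olfr1270, between 0.28 and 0.56.

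Olfactory receptor genes, the measure of background, had a positive difference in 854 of 1015 cases, where 10325 of all 19938 genes had one. Of the 1015, 79 had an unadjusted p under 0.05 with higher signal and 1 with lower, against 3.34% and 3.06% of all genes, and their median difference was 0.12 against 0.01 over all genes. Relative to the oil mean, the median olfactory receptor gene lay at -0.07, 0.04 and 0.04 in the oil arrays and at 0.20, -0.04 and 0.19 in the DEHP arrays. The first and the third DEHP arrays were above all oil arrays and the second was not. The VZ arrays, at 0.05, 0.08 and 0.11, were above all oil arrays too. In the VZ line 42 of the 1015 were higher and 2 lower at an unadjusted p under 0.05, where 1.72% of all genes were higher. The median difference of all probes fell stepwise with signal, from 0.04 at signals of 5 to 6.7 to -0.04 at 10 and above. Without the second DEHP array 239 of the 1015 (23.5%) had an unadjusted p under 0.05 with higher signal, where 6.74% of all genes did, and without the first oil array 37 did (3.65%), where 1.92% of all genes did. The part of this shift in the dim genes named here was not tested. Of the 296 microRNA hairpins described below, 216 had a dim mean signal.

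**Figure D3:**
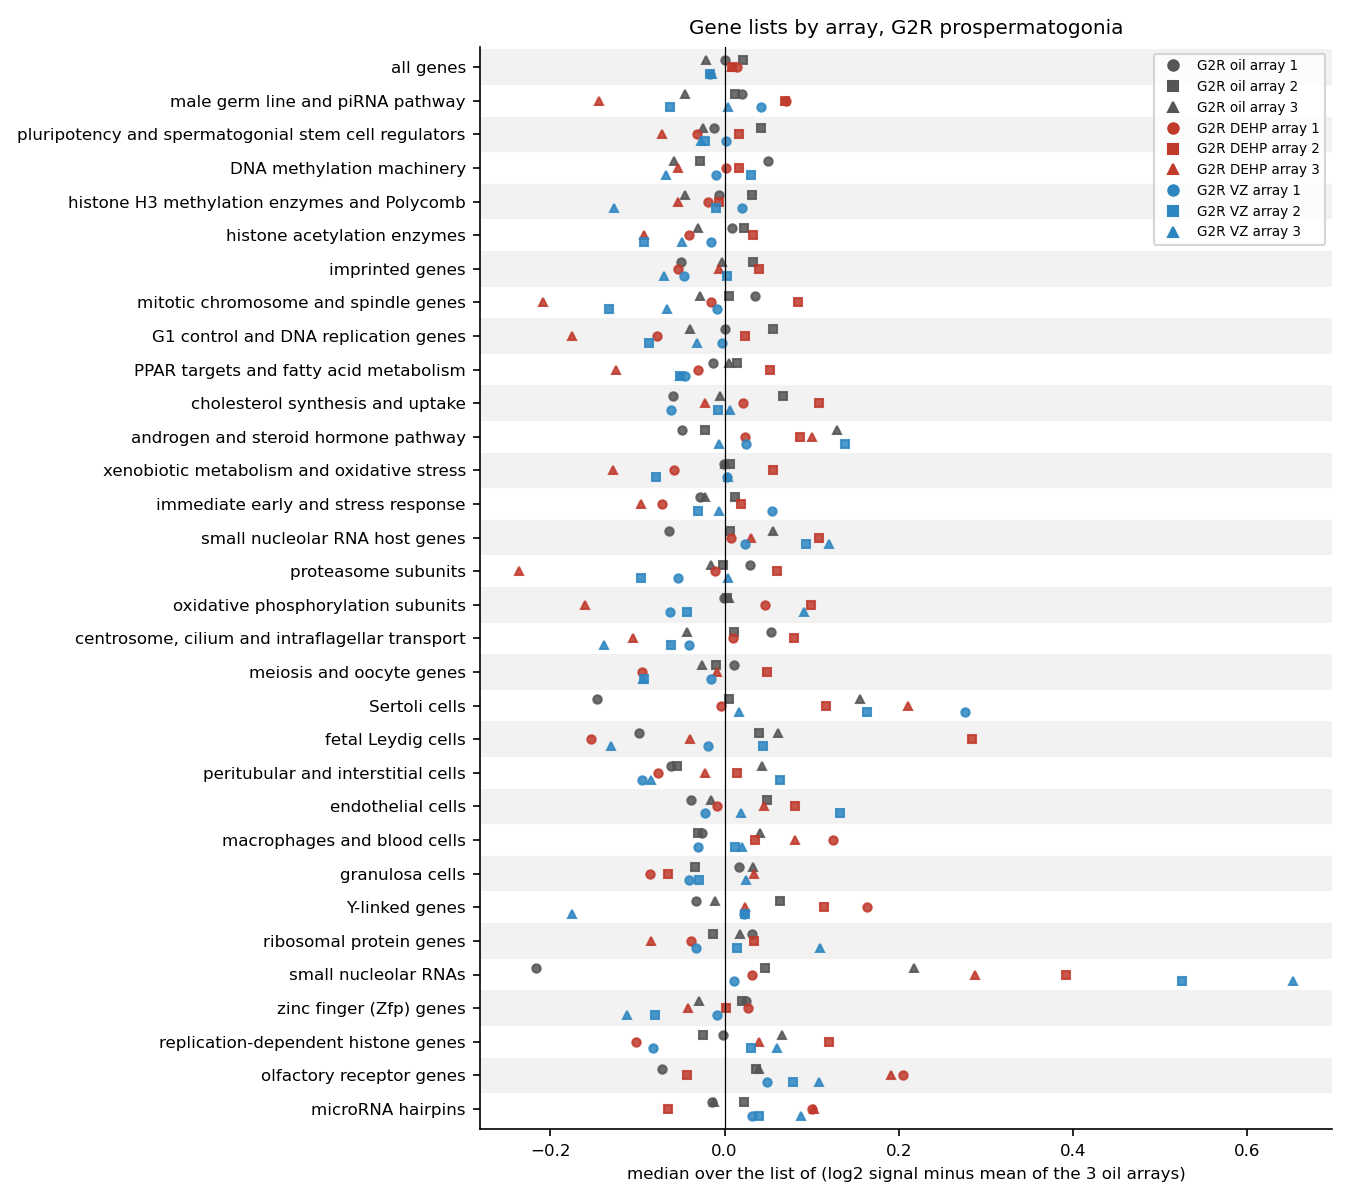
Median over each gene list of the log2 signal minus the mean of the 3 oil arrays, 1 point per array, for G2R oil (grey), DEHP (red) and VZ (blue). Small nucleolar RNAs spread most, from -0.22 in the first oil array to 0.65 in the third VZ array, and olfactory receptor genes were at 0.20 and 0.19 in the first and the third DEHP arrays and at -0.04 in the second.

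Genes that define and program male germ cells gave no list-wide difference. Of 28 genes of the male germ line and the piRNA pathway, 1 had an unadjusted p under 0.05 with higher and 0 with lower signal, and the median was -0.01. That gene was Nanos3, an RNA-binding protein that protects migrating germ cells, with 7.25, 7.18 and 7.27 in oil and 7.54, 7.50 and 7.56 in DEHP. The groups did not overlap, the difference was 0.30 ± 0.11 (limma adjusted p = 0.662), and the 3 VZ arrays had a mean difference of 0.28 from the same oil arrays. Piwil2, another piRNA pathway effector, had -0.04 ± 0.07. Of 25 pluripotency and spermatogonial stem cell regulators none reached an unadjusted p of 0.05, with differences between -0.22 and 0.11.

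The DNA methylation machinery matters here because exposure of the fathers overlapped its work. Dnmt3l, Dnmt3a and Dnmt1 had differences of -0.03 ± 0.10, -0.04 ± 0.10 and -0.07 ± 0.08. Dnmt3b, the de novo methyltransferase best known for the embryo, had 8.52, 8.59 and 8.47 in oil and 8.39, 8.39 and 8.37 in DEHP, so all DEHP arrays lay below oil. Its difference was -0.15 ± 0.07 (limma adjusted p = 0.703). Gadd45b, a stress-induced gene linked to demethylation, had 7.35, 7.14 and 7.08 in oil and 6.90, 6.82 and 6.85 in DEHP, a difference of -0.34 ± 0.12 (limma adjusted p = 0.662). These were the only 2 of 25 with an unadjusted p under 0.05. The median over the list was 0.00.

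Chromatin enzymes showed differences of the same order. Among 47 histone H3 methylation enzymes and Polycomb proteins, 0 were higher and 3 lower at an unadjusted p under 0.05: the demethylase gene Kdm2b at -0.20, the methyltransferase gene Setd7 at -0.23 and Kmt2e at -0.22. Kmt2c (formerly Mll3) and Ehmt2, which encode a methyltransferase of the lysine 4 group and the lysine 9 methyltransferase G9a, had 0.08 ± 0.08 and -0.08 ± 0.09. Among 30 histone acetylation enzymes, the deacetylase genes Hdac4 and Hdac3 and the acetyltransferase gene Kat2b were higher, by 0.18, 0.26 and 0.23, and the deacetylase gene Sirt2 was lower, at -0.17. None of these 4 had an adjusted p under 0.696 in limma.

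In somatic cells, imprinted genes are expressed by parental origin, under methylation carried over from the parents. According to the study, germ cells erase these marks and then express imprinted genes from both alleles. Total signals of these cells therefore do not read parental methylation. The parental alleles named below, and for Cdkn1c above, are those used outside the germ line. Of 53 measured, 2 were higher and 4 lower at an unadjusted p under 0.05, with a median of -0.02. Besides Cdkn1c, Sfmbt2, a Polycomb-related gene expressed from the paternal allele, had 10.67, 10.72 and 10.76 in oil and 10.37, 10.59 and 10.48 in DEHP, without overlap and with a difference of -0.23. Blcap had 8.36, 8.34 and 8.34 in oil and 8.58, 8.48 and 8.58 in DEHP, a difference of 0.20 between tight groups. Rtl1, a retrotransposon-derived gene expressed from the paternal allele, had 0.38 with overlap. The adjusted p of these last 3 lay between 0.662 and 0.684 in limma.

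Cell cycle genes had more negative than positive differences, 35 of 47 and 35 of 49 in the lists below, where 9613 of all 19938 genes were negative. The mean signals of both lists lay between 8.5 and 10 in every array. Of the 6420 probes in that range, 307 were lower and 167 higher at an unadjusted p under 0.05, with a median of -0.02. The part of this trend with signal in these lists was not tested. A negative majority was not confined to them, as 38 of 47 proteasome subunits were negative. In the VZ line, compared with the same oil arrays, the G1 and replication list had a median of -0.04 and the mitotic list one of -0.07. Of 47 genes of G1 control and DNA replication, 1 was higher and 5 lower (10.6%) at an unadjusted p under 0.05, where 3.06% of all genes were lower, with a median of -0.05. Rbl1, a retinoblastoma family member, was the higher one at 0.32, and the replication licensing factor gene Cdt1 and the cyclin gene Ccnd3 had -0.24 and -0.29. Of 49 mitotic chromosome and spindle genes, 1 was higher and 3 lower (6.12%), with a median of -0.06. Birc5, the survivin subunit of the chromosomal passenger complex, had 6.44, 7.02 and 6.72 in oil and 7.03, 7.06 and 7.18 in DEHP, whereas the kinesin gene Kif11 and the cohesin gene Smc3 had -0.24 and -0.19. The 42 meiotic and oocyte genes had 0 higher and 4 lower (9.52%). Smc1b and Rad21l, subunits of meiotic cohesin, had -0.34 and -0.53, Syce2 of the synaptonemal complex had -0.24, and Nobox, an oocyte transcription factor, had -0.32. In Rad21l the second DEHP array, at 8.68, was above all oil arrays of 8.42 to 8.64, while the others were at 7.78 and 7.58, and its second probe had -0.22. The median of this list was -0.03. From the oil mean, the median mitotic gene lay at -0.02, 0.08 and -0.21 in the 3 DEHP arrays and between -0.03 and 0.04 in oil, so the second DEHP array was above all oil arrays and the third far below them. Without the second DEHP array, 7 of the G1 and replication genes, 9 of the mitotic genes and 6 of the meiotic genes had an unadjusted p under 0.05 with lower signal, or 14.9%, 18.4% and 14.3%, where 6.22% of all genes did. Without the first oil array, 2, 1 and 2 did, where 1.83% of all genes did.

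Receptors and pathways through which DEHP acts were tested next. Its metabolite activates the PPAR nuclear receptors, which control fatty acid oxidation. Of 40 PPAR targets and fatty acid genes, 1 was higher (2.5%) and 3 lower (7.5%) at an unadjusted p under 0.05, against 3.34% and 3.06% of all genes. These became 2 higher and 9 lower (22.5%) without the second DEHP array, where 6.22% of all genes were lower. Without the first oil array they became 1 higher and 2 lower (5%), where 1.83% of all genes were lower. Ppara itself, the receptor activated by phthalates in liver, had 8.01, 7.90 and 7.96 in oil and 7.51, 7.91 and 7.74 in DEHP, with overlap and a difference of -0.24 ± 0.09 (limma adjusted p = 0.662). Cidea, a lipid droplet protein, and Angptl4, an inhibitor of lipoprotein lipase, had -0.42 and -0.18. Cyp4a14, a fatty acid hydroxylase and a strong PPAR target in liver, had 0.46, but from dim signals of 5.32 to 5.63 in oil. Of 31 genes of the androgen and steroid hormone pathway and 28 of cholesterol synthesis and uptake, none reached an unadjusted p of 0.05. Slco6b1, which encodes an organic anion transporter, had 5.88, 5.88 and 5.65 in oil and 5.28, 5.50 and 5.96 in DEHP, all dim. Of 46 xenobiotic and oxidative stress genes, 2 were lower, the peroxidase gene Gpx3 at -0.40 and the superoxide dismutase gene Sod1 at -0.22, which is 4.35% against 3.06% of all genes. The count lower was 6 (13%) without the second DEHP array, where 6.22% of all genes were lower. It was 1 (2.17%) without the first oil array, where 1.83% were.

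The remaining lists are read against the 3.34% of all genes with higher and 3.06% with lower signal at an unadjusted p under 0.05. Of 57 centrosome and cilium genes, 4 were higher (7.02%) and 0 lower: Cep192, Cspp1, Bbs10 and Tctn1, at 0.22, 0.29, 0.22 and 0.23. Other probes had -0.067 and 0.145 for Cep192, -0.52 to 0.39 for Cspp1 and 0.004 for Tctn1. Proteasome subunits had 1 of 47 lower and a median of -0.07, oxidative phosphorylation subunits 1 of 72 higher and 2 lower, and ribosomal protein genes 2 of 61 higher and 1 lower. The stress response list had 1 of 31 lower, the zinc finger genes 9 of 341 higher and 18 lower, and the replication-dependent histone genes 1 of 27 higher. Of 10 genes listed for granulosa cells, which belong to the ovary and not to these male gonads, 2 were lower (20%). For other cells of the gonad, 2 of 20 peritubular genes (10%) were lower, 1 of 23 macrophage and blood genes was higher and 1 lower, and none of 14 endothelial genes reached that p. None of 8 Y-linked genes did either. Without the second DEHP array, where 6.74% of all genes were higher and 6.22% lower, 9 oxidative phosphorylation genes (12.5%), 4 proteasome genes (8.51%), 4 cilium genes (7.02%) and 29 zinc finger genes (8.5%) were lower, and 4 macrophage and blood genes (17.4%) were higher. Without the first oil array, 1.92% of all genes were higher and 1.83% lower. There the same lists had 1 (1.39%), 0, 0 and 11 (3.23%) lower, and 1 macrophage and blood gene (4.35%) higher.

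Small nucleolar RNAs (snoRNAs), which guide chemical modification of ribosomal RNA, had the highest median of the 31 lists, 0.23, with 4 of 51 higher and 0 lower at an unadjusted p under 0.05. Their differences ran from -0.74, the lowest of all 19938 genes, to 0.61. Snora30 had 8.03, 8.40 and 8.15 in oil and 8.59, 8.59 and 8.74 in DEHP, without overlap, and a difference of 0.44 ± 0.15 (limma adjusted p = 0.642). Snora52 had 12.84, 13.11 and 13.18 in oil and 13.22, 13.31 and 13.41 in DEHP, also without overlap. Over the list, however, the arrays overlapped: the median snoRNA lay at -0.22, 0.05 and 0.22 from the oil mean in oil and at 0.03, 0.39 and 0.29 in DEHP. In the VZ arrays, compared with the same oil arrays, it lay at 0.01, 0.53 and 0.65, and 22 of 51 were higher at an unadjusted p under 0.05 where 1.72% of all genes were. The first oil array was the lowest of the 9, and without it the DEHP median was 0.12 with 1 higher and 1 lower. Their host genes had a median of 0.03, with 0 of 17 at an unadjusted p under 0.05.

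MicroRNAs silence messenger RNAs by pairing of a seed, bases 2 to 8 from their 5′ end. The array reads hairpin genes, so a value here does not separate the precursor from either mature arm. Mir30e and Mir30c-2 were among the 4 hairpins with the smallest p, and the sequences below show the seed that members of their family share, in capitals. They were taken from RefSeq (GRCm38.p6), in which 271 of the 296 hairpins measured had an entry.
miR-30e-5p: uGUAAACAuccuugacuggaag
miR-30c-5p: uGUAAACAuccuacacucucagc
miR-30a-5p: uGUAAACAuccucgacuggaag
miR-149-5p: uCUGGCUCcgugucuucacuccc
miR-7b-5p: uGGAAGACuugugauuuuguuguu
The first 3 share the seed GUAAACA and differ downstream of it, and miR-149 and miR-7b, the other hairpins named by the rule, have seeds of their own. Mature miR-30e-5p lies at chr4:120772660-120772681 on the minus strand, beside Mir30c-1, whose 5p arm is at chr4:120769584-120769606 on the same strand. Mir30c-2 encodes the same miR-30c-5p from chr1:23291714-23291736 on the plus strand, with Mir30a nearby at chr1:23272274-23272295.

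Mir30e had 6.08, 6.37 and 5.88 in oil and 5.66, 5.49 and 5.36 in DEHP, without overlap, and a difference of -0.61 ± 0.18 (limma adjusted p = 0.605). Mir30c-2 had 5.85, 5.62 and 5.43 in oil and 5.14, 4.94 and 5.13 in DEHP, also without overlap, with -0.56 ± 0.19 (limma adjusted p = 0.655). The family did not share a direction, however. Mir30c-1, Mir30a, Mir30d and Mir30b were looked up after these values were seen. Mir30c-1, which encodes the same miR-30c-5p and is a neighbour of Mir30e, had 5.07, 4.98 and 5.09 in oil and 5.39, 5.07 and 5.55 in DEHP, a difference of 0.29. Mir30a, Mir30d and Mir30b had -0.25, -0.15 and 0.02. Of these 6 hairpins only Mir30d was above the dim boundary, at 7.05 to 7.17 in oil and 6.92 to 7.04 in DEHP. Mir7b had -0.34 without overlap and Mir149 had 0.46 with overlap. Over all 296 hairpins, 14 were higher (4.73%) and 5 lower (1.69%) at an unadjusted p under 0.05, against 3.34% and 3.06% of all genes, with a median of 0.04. The VZ line, compared with the same oil arrays, had a median of 0.06. Without the second DEHP array 41 were higher (13.9%, where 6.74% of all genes were) and the median was 0.10, and without the first oil array 7 were higher (2.36%, where 1.92% were).

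Only 7 genes had both an unadjusted p under 0.05 and a difference of at least 1.5-fold (0.0351% of genes), and 6 of these were higher (0.0301%). They were Mir30e, Mir18, the antimicrobial peptide gene Defb4, Ect2l, the epidermal gene Lce1i, Olfr679 and the Sertoli cell gene Cst9. Cst9 had the largest difference of all 19938 genes, 0.99 ± 0.44 (limma adjusted p = 0.708), with 5.12, 5.80 and 6.59 in oil and 6.68, 6.72 and 7.09 in DEHP. The groups did not overlap, and the highest oil array came close to the lowest DEHP array. Defb4 had 5.41, 5.49 and 5.12 in oil and 6.02, 6.51 and 5.91 in DEHP, a difference of 0.81 between dim signals. In Ect2l 12 other probes had differences of -0.32 to 0.20.

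The same contrast was available in the exposed generation, from 3 G1R DEHP and 3 G1R oil males that share no array with the G2R groups. G1R cells were collected directly after the exposure, from fetuses of the reciprocal cross, and according to the study the generations may have been run at different times. In G1R, 3211 of 19938 genes (16.1%) had an unadjusted p under 0.05 and 2 probes (0.00562%) passed the adjusted test, those of Hbb-bh2 and Tlcd4. Hbb-bh2, an embryonic beta globin gene with dim signals in both generations, differed by -0.60 in G1R (limma adjusted p = 0.0274). In G2R it had 6.16, 6.07 and 6.28 in oil and 6.27, 5.95 and 6.19 in DEHP, a difference of -0.04 with an interval of -0.22 to 0.15. Tlcd4 differed by 0.59 in G1R (limma adjusted p = 0.0274) and by 0.07 in G2R, with an interval of -0.12 to 0.27. Both G2R intervals exclude the G1R estimates. However, these genes were taken because they passed in G1R, and the G1R estimates have an error of their own. For Slco6b1, dim in G2R, the differences were 0.89 in G1R and -0.22 in G2R. The difference between generations itself, the generation by treatment term, had adjusted p of 0.116, 0.13 and 0.0999 for these 3 genes in limma.

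Over all probes, the generation by treatment term passed the adjusted test for 0 of 35556 (0.0%), with 4740 (13.3%) at an unadjusted p under 0.05 and 31 at an adjusted p under 0.1 (0.0872%). Without the second G2R DEHP array it passed for 604 probes, 398 of them with a single gene. The 10 genes taken for this term with all arrays had the smallest p among genes not dim in every group compared. Of these 10, 9 were lower in DEHP in G2R and higher in G1R. Dim genes were left out of the choice, so this count does not cover them. Arid3c, a DNA-binding protein of the ARID family, had 8.27, 8.23 and 8.14 in G2R oil and 7.81, 8.01 and 7.64 in G2R DEHP. In G1R it had 8.18, 8.32 and 8.26 in oil and 8.60, 8.76 and 8.42 in DEHP. The arrays did not overlap in either generation, in opposite directions, and the G2R minus G1R term was -0.73 (SE 0.14; limma adjusted p = 0.0904). Igf2bp3, an RNA-binding protein of fetal tissues, had -0.25 in G2R and 0.45 in G1R, and Taf9b, a transcription factor subunit, -0.22 and 0.46, both with an adjusted p of 0.0904 for the term. Cfap126 had -0.55 and 0.36 and Tmem62 -0.43 and 0.26 (adjusted p of 0.0999 in limma for both). Mamdc4 was the exception, with 0.22 in G2R and -0.35 in G1R.

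Of the 1275 genes with an unadjusted p under 0.05 in G2R, 261 (20.5%) also had one in G1R, where 16.1% of all genes did. These are 8.13% of the 3211 of G1R, where 6.39% of all genes had one in G2R. Of the 261, 51 had the same direction and 210 the opposite, 131 of them lower in G2R and higher in G1R. Over all genes, 44.4% had the same sign in the 2 generations. Olfactory receptor genes, the measure of background, had medians of 0.12 in G2R and -0.10 in G1R, and probes of signals of 5 to 6.7 had medians of 0.04 and -0.08. The part of this opposed background in the count was not tested.

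**Figure D4:**
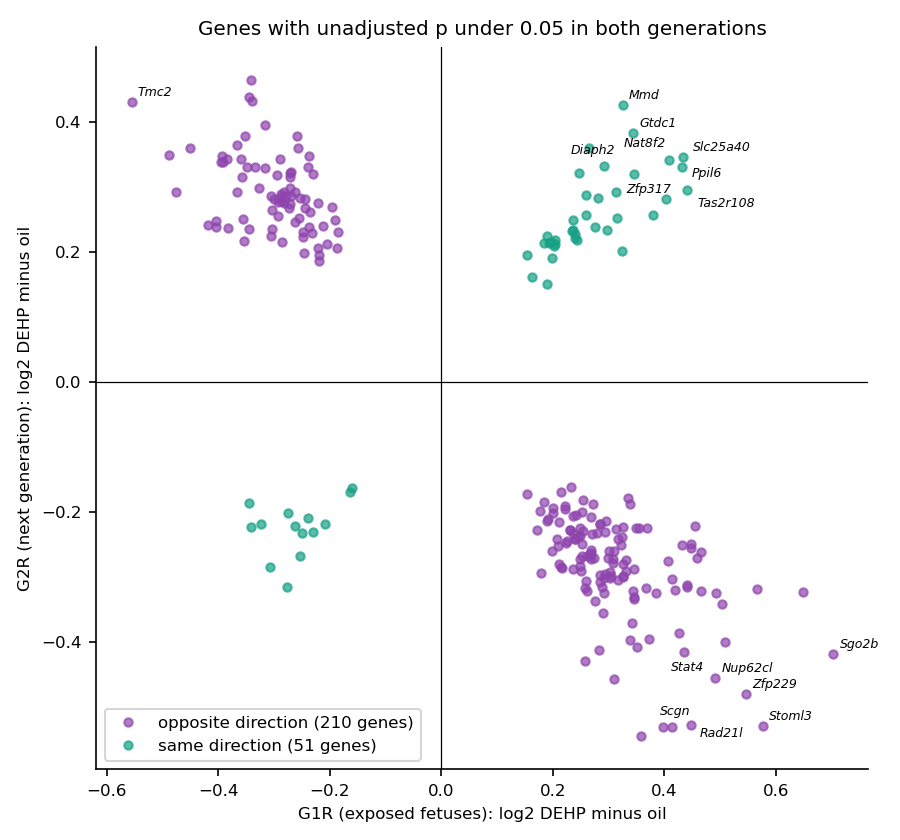
Log2 DEHP minus oil difference in exposed G1R prospermatogonia (x axis) and in G2R prospermatogonia (y axis) for the 261 genes with an unadjusted p under 0.05 in both. Of these genes 210 lie in the quadrants of opposite direction (purple) and 51 in those of the same direction (green), and the 8 named per class are those whose weaker difference of both generations was largest.

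The opposed genes with the largest differences included Zfp229, a zinc finger gene, with 8.01, 7.86 and 7.77 in G2R oil and 7.28, 7.50 and 7.40 in G2R DEHP, and a G1R difference of 0.55. Sgo2b, a shugoshin that protects centromeric cohesion, had -0.42 in G2R and 0.70 in G1R. In G2R its first DEHP array, at 7.10, lay far below the others at 7.77 and 7.84, and the groups overlapped. Nup62cl, Scgn, Stoml3, Rad21l and Stat4 were likewise lower in G2R, with differences of -0.41 to -0.53, and higher in G1R. Tmc2 was the reverse, at 0.43 in G2R and -0.56 in G1R. Among genes with the same direction, Mmd had 5.89, 6.29 and 6.24 in G2R oil and 6.47, 6.54 and 6.68 in G2R DEHP, all dim, and differences of 0.43 in G2R and 0.33 in G1R. Diaph2, a formin of the actin cytoskeleton, had 8.53, 8.60 and 8.27 in G2R oil and 8.90, 8.82 and 8.68 in G2R DEHP, and differences of 0.33 and 0.29. Zfp317 had 0.32 and 0.35, again without overlap in G2R. Gtdc1, Slc25a40, Nat8f2, Ppil6 and Tas2r108 completed the 8, all higher, at 0.30 to 0.38 in G2R and 0.34 to 0.44 in G1R. Another probe of Slc25a40 had -0.014 in G2R. The term for the difference between generations had adjusted p of 0.783 to 0.969 for these 8 in limma, which does not show that the differences were equal.

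Prospermatogonia of the VZ line, whose G0 dams received 100 mg/kg/day of the fungicide vinclozolin, were compared with the same 3 oil arrays, so an oil array that lies high or low enters both differences. There 825 genes (4.14%) had an unadjusted p under 0.05 and 0 of 35556 probes (0.0%) passed the adjusted test. Mblac2 had 6.79, 6.73 and 6.73 in the VZ arrays, below all DEHP arrays, and a difference from oil of 0.10 against 0.51 in DEHP. Cdkn1c had 8.99, 9.18 and 9.28 in VZ, within or near the oil range, and a difference of -0.08 against -0.40. Zar1 and Smc4 had -0.25 and -0.27 in VZ against -0.49 and -0.37 in DEHP. Bend5 had -0.04 and St3gal3 0.03 in VZ, against -0.33 and 0.31 in DEHP. Msantd3 and Prdm11 had -0.46 and -0.29 in VZ, close to their -0.48 and -0.36 in DEHP. The difference between the DEHP and VZ lines was not tested.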

How the data were processed

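The authors normalized the arrays with RMA and analysed them in Partek (versions not given in the sources used here). The deposited values are log2 signals per probe, and RMA scales all arrays to one distribution, so a change of total RNA cannot be seen. They were used as deposited, and samples were grouped by their labels. limma 3.58.1 (R 4.3.3) was fitted with a mean for each of 11 groups over 32 arrays (21 residual and 3.67 prior degrees of freedom), with Benjamini-Hochberg adjustment over 35556 probes at a threshold of 0.05, after the fit had been tested on simulated data. An exact permutation test of 3 arrays against 3 cannot go below 0.1.

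Genes were named from the 21789 probes that name a single gene (1621 name several, 12146 are not listed), each by its probe with the highest mean over the 9 G2R arrays. Named were the 15 leading genes on each side and up to 4 per list with the smallest p. A set of study, germ cell and earlier top genes was added. So were 10 for generation by treatment, chosen without genes dim in every group compared, and 8 per direction common to both generations. Genes past 1.5-fold, those called without the second DEHP array and other miR-30 hairpins were named after their values were seen. The members and the 31 lists were chosen with earlier results of these data known. Alternatives were an unmoderated contrast, only the 9 G2R or the 6 compared arrays, no dim probes, only single-gene probes, cyclic loess, array weights, a replicate block and leaving out each array. Plots used matplotlib 3.10.9 (Python 3.11.15).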

Additional observations from a re-analysis of the deposited data

How the results depend on the processing

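No probe passed the adjusted test under any alternative to the analysis of all arrays except that without the second DEHP array, so that leaving out each array in turn gave 0 to 19 probes. The 2456 probes with an unadjusted p under 0.05 became 1583 in a model of only the 6 arrays, 1551 among single-gene probes, and 1347 (without the first oil array) to 4654 (without the second DEHP array) on leaving out an array. Cyclic loess gave 1082 higher and 1392 lower, where the deposited values gave 1302 and 1154. The 232 probes that also differed by 1.5-fold became 83 without dim probes, 11 among single-gene probes and 169 to 599 on leaving out an array, with 493 and 428 without the second and the third oil array. For generation by treatment, the 0 probes at an adjusted p under 0.05 became 3 without dim probes, 15 among single-gene probes, 3 with cyclic loess, 22 with array weights and 0 to 604 on leaving out an array. Of those, 604 came without the second G2R DEHP array, 8 without the third G1R oil array, 2 without the first G1R DEHP array and 1 each without the second G1R and the third G2R oil array. The cause was not tested.

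Replicate numbers did not pair the samples: deviations of same-numbered oil and DEHP arrays correlated at -0.128, -0.139 and 0.122. With a replicate block, 0 probes passed the adjusted test, 2346 had an unadjusted p under 0.05, 233 of these differed by 1.5-fold, and 0 passed for generation by treatment.

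Differences changed sign for 13 named genes, 2 of which were not near 0, Star at 0.416 and Cyp11a1 at 0.294 with all arrays. On leaving out an array they ranged from -0.389 to 0.697 for Cyp11a1, -0.11 to 0.715 for Star, -0.06 to 0.003 for Dazl, -0.113 to 0.005 for Ddx4, -0.116 to 0.01 for Dnmt1, -0.091 to 0.013 for Dnmt3a, -0.103 to 0.051 for Dnmt3l, -0.177 to 0.015 for Ehmt2, -0.102 to 0.057 for Hbb-bh2, -0.075 to 0.101 for Mir30b, -0.073 to 0.129 for Piwil4, -0.181 to 0.013 for Sry and -0.016 to 0.145 for Tlcd4. Cyclic loess gave 0.02 for Dazl and -0.025 for Mir30b, and array weights -0.037 for Cyp11a1 and 0.004 for Dnmt3l. The number of arrays limits the precision.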
